A study of Mus musculus with 9 samples.

Results

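This section describes the genes that make fatty acids and join them to glycerol as triglyceride, in epididymal fat of mice that carry a Tm5NM1 transgene and of wild-type mice. 37 genes were chosen by symbol in the platform's probe annotation: 10 of lipogenesis, 9 of desaturation and elongation, and 18 of fatty acid activation and esterification. 36 of them have a probe named here (66 probes); for Acsl1 no probe is named here. 32 of the 37 were measured, meaning that the detection p of a probe was under 0.05 on 4 arrays or more, out of 12171 such genes among the 19057 named on the array. Acaca, Me1, Agpat5 and Mogat1 were not well above background on any array and have no level below. 48 probes of the members were kept, and 31 of the 32 measured members were detected on all 9 arrays, the exception being Elovl7 with 8.

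RNA was measured on Illumina mouse bead arrays, with 1 array per mouse. All 9 mice were of the FVB/N strain, 3 months old and fasted for 14 to 16 h before epididymal fat, the pad that lies against the epididymis, was taken. In 5 mice (tg/tg in the labels) the genome held a Tm5NM1 transgene, for a cytoskeletal tropomyosin encoded by Tpm3, and 4 mice (wt/wt) were wild type. The sources used here do not give the promoter that drives the transgene, the number of founder lines or the litters. Mice are named by the submitters' numbers, and values stand throughout in the order 165, 152, 147, 163 and 164 for the transgenic mice and 141, 142, 143 and 159 for the wild-type mice. Each value is a background-corrected, quantile-normalized probe level on the log2 scale, and each difference is the transgenic minus the wild-type mean with its 95% interval from limma. Levels of different probes are not set against each other.

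Lipogenesis starts from citrate, which leaves the mitochondrion and is cleaved to acetyl-CoA. Acetyl-CoA carboxylase and fatty acid synthase build palmitate from it, and elongases and desaturases then lengthen and desaturate the chain. In the glycerol phosphate pathway, acyltransferases, phosphatidate phosphatases (lipins) and diacylglycerol acyltransferases attach activated fatty acids to glycerol. In white fat these genes are known to be driven by insulin and feeding through SREBP-1c and ChREBP, and to be low in fasting, the state in which all 9 mice were sampled.

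Between 22239 and 23313 of 45281 probes were detected per array. The median signal before normalization was 142 to 147 for 3 wild-type mice (142, 143 and 159), and 169 to 192 for the transgenic mice and mouse 141, so the dimmer arrays were all wild type. A scan or slide effect cannot be told apart from this split in the sources used here. 9 of 10 adipocyte markers were measured, each on all 9 arrays, with a mean level of 11.86 to 12.71 in the transgenic and 11.68 to 12.55 in the wild-type mice, and the remaining marker, Cfd, has no probe named here. Over all probes, 16 of 23354 passed the test, all lower in the transgenic mice (0.0685% of probes). Of 9 measured epididymis and testis markers 2 passed the test, both lower in the transgenic mice. Both passed the detection filter only through the wild-type arrays, so these calls are no support for a pattern. The mean level of the 9 was 5.07 to 9.74 in the transgenic and 9.65 to 12.13 in the wild-type mice, which overlap.

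The promoters of 4 members are shown, because these genes spread more than 4-fold between mice and were lowest in the same wild-type mouse, 159, as described below. Each run is the 250 bases before the annotated start, 5′ to 3′ on the gene's own strand, from RefSeq on build GRCm38.p6. The capitals mark a CCAAT box, written CCAAT or, on the opposite strand, ATTGG. In Fasn the run CCAATTGG holds overlapping boxes on both strands.
Fasn, chr11:120824548-120824797, minus strand: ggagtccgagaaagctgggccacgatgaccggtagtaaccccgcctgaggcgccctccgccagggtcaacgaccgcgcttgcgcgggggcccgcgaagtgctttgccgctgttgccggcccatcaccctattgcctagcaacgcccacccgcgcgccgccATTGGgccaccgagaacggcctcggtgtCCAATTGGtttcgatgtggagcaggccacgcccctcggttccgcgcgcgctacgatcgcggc
Slc25a1, chr16:17928220-17928469, minus strand: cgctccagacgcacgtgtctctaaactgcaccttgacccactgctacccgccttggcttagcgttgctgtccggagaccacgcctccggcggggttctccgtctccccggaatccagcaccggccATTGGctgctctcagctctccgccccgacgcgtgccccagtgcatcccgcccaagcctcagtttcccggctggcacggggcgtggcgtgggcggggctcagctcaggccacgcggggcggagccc
Thrsp, chr7:97417551-97417800, minus strand: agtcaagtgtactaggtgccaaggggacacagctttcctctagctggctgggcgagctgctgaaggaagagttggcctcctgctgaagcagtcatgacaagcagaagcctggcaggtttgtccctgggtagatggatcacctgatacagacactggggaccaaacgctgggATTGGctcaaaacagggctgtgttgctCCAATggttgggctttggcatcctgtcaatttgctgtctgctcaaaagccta
Pnpla3, chr15:84167566-84167815, plus strand: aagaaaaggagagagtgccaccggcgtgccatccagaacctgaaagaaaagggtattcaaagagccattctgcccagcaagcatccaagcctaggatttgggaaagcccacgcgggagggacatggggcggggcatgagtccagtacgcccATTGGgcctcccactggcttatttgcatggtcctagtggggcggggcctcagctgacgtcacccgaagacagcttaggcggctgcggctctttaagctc

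None of the 32 measured members passed the threshold of an adjusted p under 0.05 in limma, against 0.107% of all measured genes (13 of 12171, each lower in the transgenic mice). 14 members were higher and 18 lower in the transgenic mice, with a median difference of -0.03 beside 0.04 over all measured genes. 4 of 32 members (12.5%) had an unadjusted p under 0.05 in limma, against 9.05% of all measured genes. Of these, 1 was higher (Mlxipl; 5.55% of all measured genes were higher at this p) and 3 were lower (Acacb, Acsl3 and Lpin3; 3.49% of all measured genes). Lpin3 was the single member whose groups did not overlap (3.12% of members, against 3.33% of all measured genes). For 20 of the 32 members the 95% interval lay within a 2-fold difference in either direction, and for the other 12 it reached further. In whole tissue, fewer adipocytes and less RNA per adipocyte cannot be told apart.

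**Figure D1:**
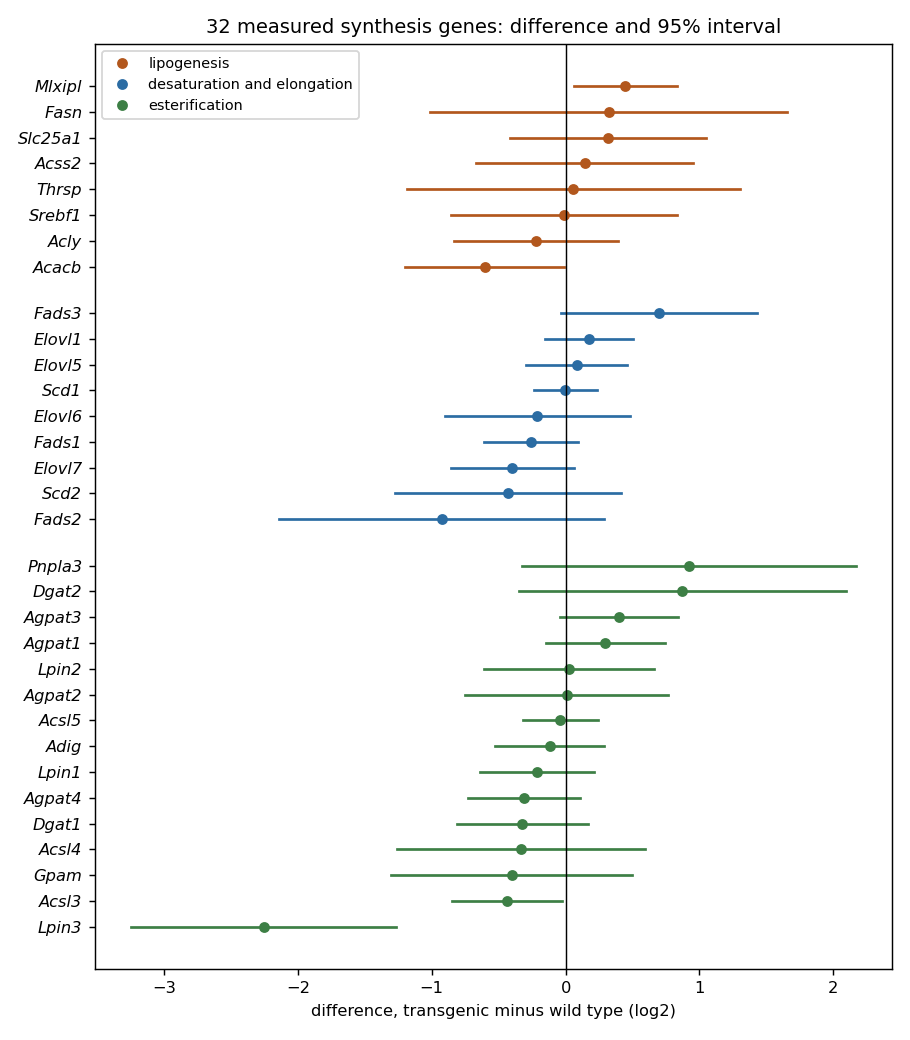
Difference between 5 transgenic and 4 wild-type mice (horizontal axis, log2) for the 32 measured members, by group; points are differences of means and bars their 95% intervals from limma. The intervals of Mlxipl, Acacb, Acsl3 and Lpin3 do not hold 0, and Lpin3 lies lowest at -2.25.

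Among the 8 measured lipogenesis genes, 5 were higher and 3 lower, with a median difference of 0.10, and none passed the test. The sign of this median was not stable. It was -0.24, with 1 gene higher and 7 lower, without wild-type mouse 159, and -0.11, with 2 higher and 6 lower, without transgenic mouse 165. With all mice and array weights it was -0.16, with 2 higher and 6 lower, and on the bright arrays alone (the transgenic mice and wild-type mouse 141) it was -0.26.

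Acly, ATP citrate lyase, which makes acetyl-CoA in the cytosol, had levels of 14.61, 15.26, 14.36, 13.93 and 14.06 in the transgenic and 14.86, 14.46, 15.02 and 14.31 in the wild-type mice. The highest value, in transgenic mouse 152, and the lowest, in 163, both lay in the transgenic group, and the difference was -0.22 (95% interval -0.83 to 0.39; adjusted p = 0.840 in limma), or -0.42 without mouse 152. Slc25a1, the mitochondrial citrate carrier, stood at 12.92, 11.76, 12.23, 11.78 and 12.18 in the transgenic and at 12.15, 12.11, 12.29 and 10.88 in the wild-type mice. Wild-type mouse 159 was lowest and transgenic mouse 165 highest, the other 7 mice lay between 11.76 and 12.29, and the difference was 0.31 (95% interval -0.42 to 1.05; adjusted p = 0.805), or -0.011 without mouse 159. Acss2, which makes acetyl-CoA from acetate, had the same extremes, from 10.49 in mouse 159 to 12.44 in mouse 165, with a difference of 0.14 (adjusted p = 0.928) that was -0.13 without 159 and -0.096 without 165.

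Acacb encodes the acetyl-CoA carboxylase at the mitochondrial surface, whose product malonyl-CoA restrains fatty acid entry for oxidation. Its levels were 11.51, 11.08, 11.86, 11.99 and 11.74 in the transgenic and 11.71, 12.09, 12.19 and 12.97 in the wild-type mice. Mouse 159 was the highest of all 9 and mouse 152 the lowest, and mouse 141 lay inside the transgenic range. The difference of -0.60 (95% interval -1.20 to -0.01) had an unadjusted p of 0.0472 and an adjusted p of 0.525 in limma, and it was -0.36 without mouse 159. The dimmer Acacb probe gave -0.60 (unadjusted p = 0.0898). Its sister gene Acaca, the cytosolic carboxylase of lipogenesis, was detected on 0 of 9 arrays through its only probe, as was malic enzyme Me1, which supplies NADPH.

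Fasn, fatty acid synthase, had levels of 10.96, 8.05, 9.56, 8.55 and 9.99 in the transgenic mice and 9.78, 9.63, 9.18 and 7.82 in the wild type. These 9 values span 8.87-fold, with transgenic mouse 165 highest, wild-type mouse 159 lowest and transgenic mouse 152 next to it, and the groups overlap over most of that span. The difference was 0.32 (95% interval -1.01 to 1.66; adjusted p = 0.899 in limma), and it was -0.11 without mouse 159 and -0.063 without mouse 165. Thrsp (Spot14), a small nuclear protein that promotes lipogenesis, had levels of 11.95, 10.70, 11.25, 10.32 and 10.88 in the transgenic and 11.48, 11.56, 11.81 and 9.0 in the wild-type mice. Mice 141, 142 and 143 stood within 0.33 of each other and above all transgenic mice but 165, while mouse 159 lay 1.32 below the nearest of all the others. Thrsp differed by 0.058 (95% interval -1.18 to 1.30; adjusted p = 0.984) with all mice, by -0.59 without 159 and by -0.17 without 165.

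Srebf1 encodes SREBP-1, the transcription factor through which insulin drives lipogenic genes. It stood at 10.08, 9.27, 10.07, 9.25 and 9.57 in the transgenic and 9.93, 10.27, 10.07 and 8.36 in the wild-type mice, and here too mouse 159 was lowest, with the other 8 mice between 9.25 and 10.27. The difference was -0.01 (95% interval -0.85 to 0.83; adjusted p = 0.997), and -0.44 without mouse 159. Mlxipl encodes ChREBP, the glucose-responsive factor, and had levels of 10.86, 10.18, 10.87, 10.52 and 10.50 in the transgenic and 10.25, 10.27, 10.14 and 9.88 in the wild-type mice. All transgenic mice but 152 were above every wild-type mouse. The difference was 0.45 (95% interval 0.06 to 0.83), with an unadjusted p of 0.0270 and an adjusted p of 0.481 in limma. A dimmer probe of Mlxipl separated the groups, at 10.29 to 10.74 in the transgenic and 9.70 to 10.17 in the wild-type mice, with a difference of 0.50 (unadjusted p = 0.00764, adjusted p = 0.379). Without normalization between arrays Mlxipl passed the threshold (0.86, adjusted p = 0.0454), but there the median of all genes was itself 0.42 higher in the transgenic mice, on whose side the brighter arrays lie.

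**Figure D2:**
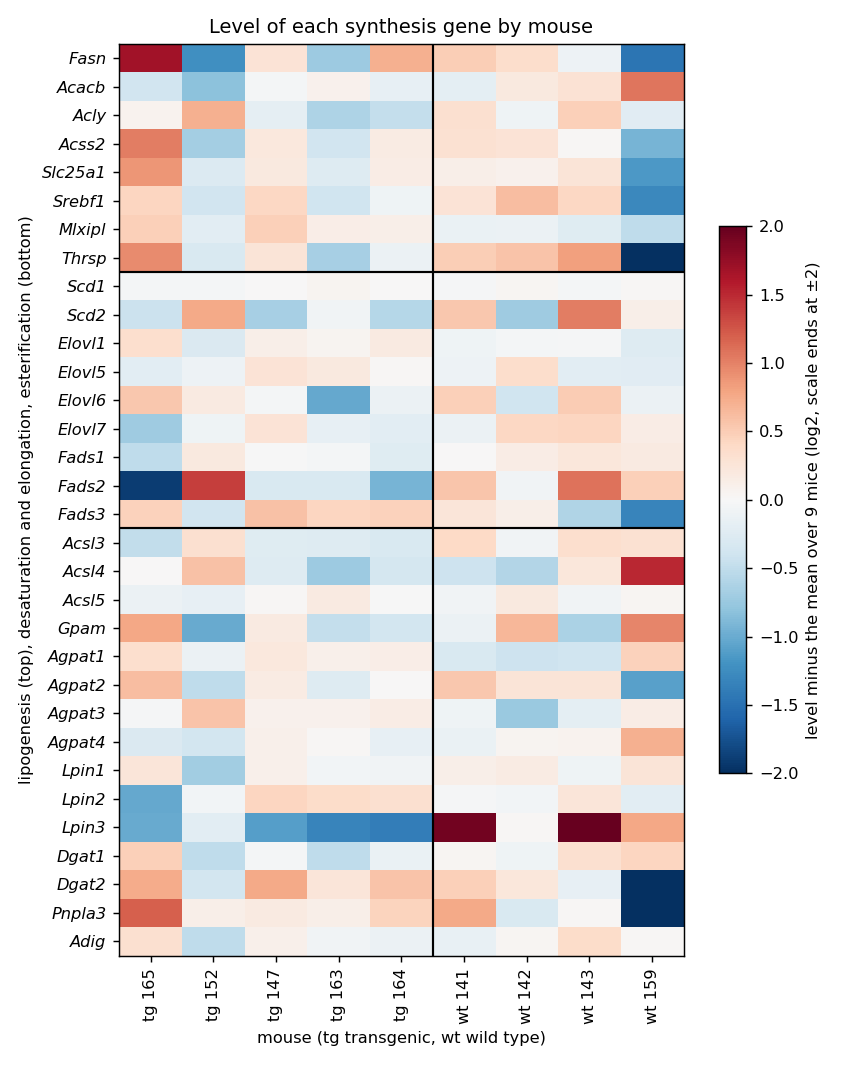
Level of each measured member in each mouse minus that gene's mean over the 9 mice (colour, log2, red above and blue below the mean; the colour scale ends at 2 in either direction). Rows are genes by group, columns mice; the column of wild-type mouse 159 is blue for 6 of the 8 lipogenesis genes at their lowest value of all mice, and mouse 165 is red at the highest value for 4 of them.

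Several of these genes varied widely between mice, in both groups. 8 of 32 members (25%) spanned more than 4-fold over the 9 mice, against 10.6% of all measured genes. 5 of the 8 (Fasn, Slc25a1, Thrsp, Dgat2 and Pnpla3) had their lowest value in wild-type mouse 159, and the other 3 were Fads2, Acsl4 and Lpin3. In all, 11 of 32 members (34.4%) were lowest in mouse 159, against 21.2% of all measured genes: Fasn, Acss2, Slc25a1, Srebf1, Mlxipl and Thrsp of lipogenesis, Elovl5 and Fads3, and Agpat2, Dgat2 and Pnpla3. 10 or 11 of these 11 were still lowest there under each of the 5 other ways of scaling or of choosing the table. The share of all measured genes lowest there moved too, between 17.6% with 75th percentile scaling and 29% without normalization between arrays. In the latter setting 11 of the 32 members were lowest in mouse 159, so the share of members lay nearer to that of all genes.

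Mouse 159 did not stand low for the whole pathway. It was the highest mouse for 6 members (18.8%, against 17.5% of all measured genes), which were Acacb, Acsl4, Gpam, Agpat1, Agpat4 and Lpin1, although 3 of these 6 kept that place without normalization between arrays. At the other end, transgenic mouse 165 was highest for 9 members (28.1%, against 17.9% of genes), among them Fasn, Acss2, Slc25a1 and Thrsp. It was also lowest for 6 members (18.8%, against 16.9% of genes), of which Scd1, Elovl7, Fads1 and Fads2 belong to the 9 desaturation and elongation genes. For Scd1, which lies at the upper end of the scale, mouse 165 was level with wild-type mouse 143 at 15.88. Transgenic mouse 152 was lowest for 8 members (25%, against 17.8% of genes) and highest for 3 (9.38%, against 15.6% of genes). Array weights, which are low where an array departs from its group over all kept probes, were lowest for mice 159, 152 and 165. They were 0.347, 0.369 and 0.509, against up to 2.51, so these arrays stood apart beyond this pathway. The median of the 8 lipogenesis genes, each taken from its mean over the mice, was -1.04 in mouse 159 and 0.68 in mouse 165, and lay between -0.40 and 0.29 in the other 7.

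Adipocyte markers moved with this order in part. Their mean level was lowest in mouse 159 (11.68), then in transgenic mouse 152 (11.86), and highest in mouse 165 (12.71). Their median, each marker taken from its mean over the mice, was -0.87 in mouse 159 and 0.43 in mouse 165. In the other mice it lay between -0.42 and 0.26. 4 of the 9 measured markers were lowest in mouse 159 (Plin1, Lep, Retn and Slc2a4), against 21.2% of all measured genes, while Cidec was highest there at 15.30. Highest in mouse 165 were 4 of the 9 (Lep, Retn, Pparg and Fabp4), against 17.9% of all measured genes. Adipoq, at 15.80 to 16.01 in all mice, lies at the upper end of the scale and gives no order. The part of adipocyte content in the lipogenesis values was not tested. The array of mouse 159 also had the lowest median signal, 142, next to 147 and 146 for mice 142 and 143, in which the lipogenesis medians were 0.23 and 0.27. Whether array signal has a part in the lipogenesis values of mouse 159 was not tested.

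**Figure D3:**
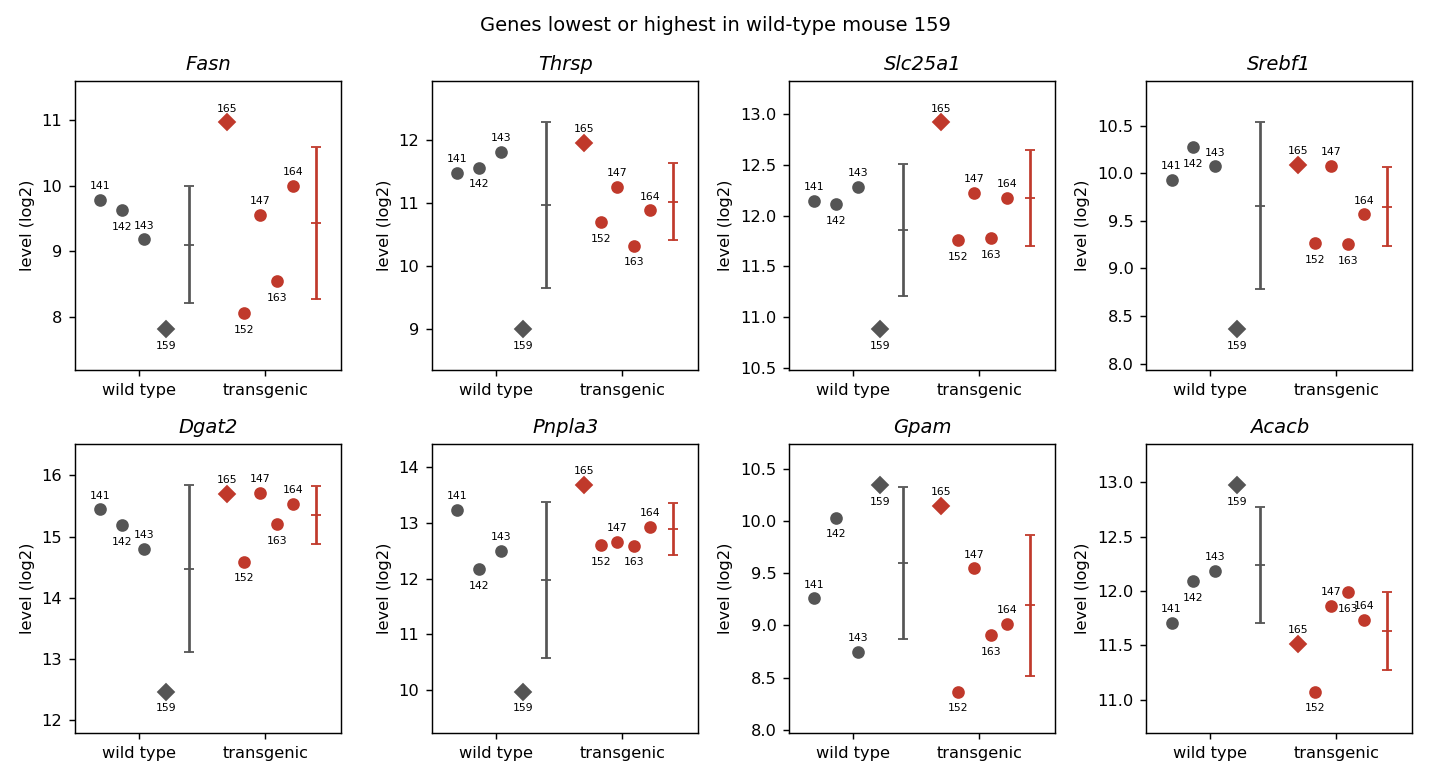
Levels (vertical axes, log2, each gene on its own scale) of 8 members in each mouse, numbered; bars beside the points are the group mean and SD (4 wild-type, 5 transgenic mice), and diamonds mark mice 159 and 165. Mouse 159 lies below every other mouse for Fasn, Thrsp, Slc25a1, Srebf1, Dgat2 and Pnpla3 and above every other mouse for Gpam and Acacb.

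The promoters of these genes were described after the values were seen, with no test. 31 of all 37 members matched the RefSeq table, where Dgat2 is not listed. A CCAAT box, the letters CCAAT on either strand of the 250 bases before a start, was present in at least 1 window of 9 of the 10 matched members that were lowest in mouse 159, of 8 of the 17 other measured members, and of 37.5% of 27025 genes in the table. The E-box CACGTG was present in 3 of the 10, 1 of the 17 and 6.86% of all genes, and in the Slc25a1 window it stands near the far end. The sterol element TCACNCCAC was present in 1 of the 10, 0 of the 17 and 1.22% of all genes. None of these 3 motifs contains another. Some members, such as Srebf1 and Lpin2, have more than 1 listed start and so more windows. The split by mouse 159 came from the same levels, so no conclusion is drawn from these shares.

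Of the 9 desaturation and elongation genes, all measured, 3 were higher and 6 lower in the transgenic mice, with a median of -0.21, and none passed the test. Scd1, the main stearoyl-CoA desaturase of fat, which makes oleate, stood at 15.88, 15.89, 15.94, 15.98 and 15.93 in the transgenic and 15.90, 15.97, 15.88 and 15.95 in the wild-type mice. Its signal was 89.2% to 98% of the brightest probe on each array, so its values lie at the upper end of the scale, and the difference of -0.0012 (95% interval -0.24 to 0.23) is read with that limit. Under scaling on the 75th percentile in place of quantiles the Scd1 difference was -0.31, so its equal levels depend on the normalization. Scd2, another desaturase gene, stood at 7.46, 8.64, 7.22, 7.81 and 7.32 in the transgenic and 8.41, 7.17, 8.91 and 7.99 in the wild-type mice. Its highest values were in wild-type mice 143 and 141 and in transgenic mouse 152, the groups overlap, and the difference was -0.43 (95% interval -1.27 to 0.41; adjusted p = 0.756 in limma), or -0.67 without mouse 152.

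Fads2, the first desaturase of polyunsaturated fatty acid synthesis, was the member of this group with the widest spread, 9.69-fold. Its levels were 6.73, 10.01, 8.33, 8.32 and 7.70 in the transgenic mice and 9.19, 8.56, 9.72 and 9.11 in the wild type. Transgenic mouse 152 was the highest of all and transgenic mouse 165 the lowest, and the 4 wild-type mice lay above the 4 other transgenic mice. The difference was -0.93 (95% interval -2.14 to 0.29; adjusted p = 0.626), and a dimmer probe gave -0.20. It was -0.55 without mouse 165 and -1.38 without mouse 152, with adjusted p above the threshold in both. By mean level, the epididymis and testis markers had the same highest and lowest transgenic mice as Fads2 (9.74 in 152, 5.07 in 165). Wild-type mouse 142 was the lowest of its group for both (9.65 for the markers). The part of epididymal tissue in the Fads2 values was not tested. Fads1, which acts later in the same route, lay between 13.84 and 14.56 in all mice and differed by -0.26 (adjusted p = 0.638). Fads3, a less well characterised member of the same family, had levels of 13.02, 12.17, 13.14, 12.98 and 13.02 in the transgenic and 12.79, 12.67, 11.96 and 11.24 in the wild-type mice. Wild-type mice 159 and 143 were lowest, transgenic mouse 152 came next, and the difference was 0.70 (95% interval -0.03 to 1.43; unadjusted p = 0.0589, adjusted p = 0.544 in limma), or 0.39 without mouse 159.

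Elovl6, which lengthens palmitate to stearate, was measured at 12.35, 11.99, 11.76, 10.79 and 11.68 in the transgenic and 12.28, 11.41, 12.32 and 11.68 in the wild-type mice. Transgenic mouse 163 was lowest, transgenic mouse 165 highest, and the difference was -0.21 (95% interval -0.90 to 0.48; adjusted p = 0.869), or -0.37 without mouse 165. Elovl7, an elongase of long-chain acyl-CoAs, stood close to background at 5.30, 5.93, 6.29, 5.86 and 5.81 in the transgenic and 5.90, 6.43, 6.45 and 6.16 in the wild-type mice. All transgenic mice but 147 were below wild-type mice 142, 143 and 159, and the difference was -0.40 (95% interval -0.86 to 0.06; unadjusted p = 0.0813, adjusted p = 0.580 in limma). Elovl1, which makes very long saturated chains, differed by 0.18 and its 3 dimmer probes by -0.05 to 0.12. Elovl5, which lengthens polyunsaturated chains, differed by 0.082 (95% interval -0.29 to 0.46).

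The 15 measured genes listed under activation and esterification, Pnpla3 and Adig among them, comprised 6 that were higher and 9 that were lower. Their median was -0.12, the value of Adig, and none passed the test. Acsl3, an acyl-CoA synthetase of the endoplasmic reticulum and lipid droplets, had levels of 9.34, 10.16, 9.60, 9.57 and 9.53 in the transgenic and 10.23, 9.76, 10.18 and 10.14 in the wild-type mice. Apart from transgenic mouse 152, every transgenic mouse was below every wild-type mouse. The difference was -0.44 (95% interval -0.85 to -0.03, unadjusted p = 0.0390, adjusted p = 0.513 in limma). As with Acsl3, the mean level of the epididymis and testis markers was lowest of all in mouse 165 (5.07). Within the groups it was highest of the transgenic mice in 152 (9.74) and lowest of the wild type in 142 (9.65). The highest wild-type mouse differed, 141 for Acsl3 and 143 for the markers. The part of epididymal tissue in the Acsl3 values was not tested. Acsl4, which prefers arachidonate, was highest in wild-type mouse 159 at 8.76 and next in transgenic mouse 152 at 7.84, with a difference of -0.33 (adjusted p = 0.842) that was 0.11 without mouse 159. Acsl5 was the steadiest synthetase, spanning 1.28-fold over all mice, with a difference of -0.04.

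Gpam, the mitochondrial acyltransferase that starts glycerolipid synthesis, had levels of 10.15, 8.36, 9.55, 8.90 and 9.01 in the transgenic and 9.26, 10.04, 8.75 and 10.35 in the wild-type mice. Wild-type mice 159 and 142 and transgenic mouse 165 were high, transgenic mouse 152 was low, and the difference was -0.40 (95% interval -1.30 to 0.50; adjusted p = 0.795). It was -0.15 without mouse 159, -0.20 without mouse 152 and -0.69 without mouse 143. Among the acyltransferases of the next step, Agpat3 stood at 9.49, 10.08, 9.61, 9.61 and 9.67 in the transgenic and 9.42, 8.77, 9.32 and 9.67 in the wild-type mice. Its highest value was in transgenic mouse 152 and its lowest in wild-type mouse 142, and the difference was 0.40 (95% interval -0.04 to 0.84; unadjusted p = 0.0724, adjusted p = 0.566 in limma). Agpat2, whose loss in humans causes a lipodystrophy, ranged from 11.28 in mouse 159 to 12.98 in mouse 165 and differed by 0.0093, or by -0.35 without mouse 159. Agpat1 and Agpat4 were both highest in mouse 159, at 8.83 and 10.22, and differed by 0.30 and -0.31. The Agpat1 difference was 0.50 without mouse 159.

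Lpin3, a phosphatidate phosphatase of the lipin family, showed the lowest difference of all members. Its levels were 6.16, 6.95, 6.06, 5.84 and 5.77 in the transgenic mice and 9.09, 7.18, 9.45 and 7.93 in the wild type. Every wild-type mouse was above every transgenic mouse, but the margin was narrow, 0.23 between wild-type mouse 142 and transgenic mouse 152, and the wild-type mice themselves spread from 7.18 to 9.45. The fitted difference was -2.25 (95% interval -3.24 to -1.26), 4.77-fold lower in the transgenic mice, with an unadjusted p of 0.000477 and an adjusted p of 0.166 in limma. It passed the threshold under 3 of 20 alternatives: without wild-type mouse 142 (-2.67, adjusted p = 0.0393), with array weights (-2.61, adjusted p = 0.0148) and without normalization between arrays (-1.84, adjusted p = 0.0495). Over all 20 the difference stayed between -2.94 and -1.25, with adjusted p from 0.0148 to 0.474. The value of -1.25 was the one without background correction, so the size of the fold depends on that correction. In transgenic mice 165, 147, 163 and 164 Lpin3 lay close to background. Its signals there were 177 to 193 before normalization, beside array medians of 169 to 176.

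Markers of the epididymis and testis are set beside Lpin3 because 9 of 9 measured were lower on average in the transgenic mice. Of the 9 markers 2 passed the threshold (Lcn9 and Lcn10), while Prm1 and Tnp1 differed by just -0.23 and -0.07. The mean level of the 9 was 5.07, 9.74, 7.88, 5.54 and 6.41 in the transgenic mice. In the wild type it was 11.15, 9.65, 12.13 and 11.54, so transgenic mouse 152 was above wild-type mouse 142. The markers did not all share an order over the mice. Among the wild-type mice Lcn8, Lcn10, Gpx5 and Adam7 were highest in 141 and 143, as was Lpin3. The sperm genes Prm1, Tnp1 and Odf1 were highest of the wild type in mouse 159. Lcn9, a lipocalin of the epididymis, stood at 11.64, 8.23, 12.14 and 8.54 in the wild type, high where Lpin3 was high (mice 141 and 143), and below background in all 5 transgenic mice. It was detected on just the 4 wild-type arrays and passed the detection filter through them alone, so its call is no support for a pattern. Lcn10 was detected on the same 4 arrays and on 1 transgenic array, and its call is no support either. Adam7 alone of the 9 was detected on 4 transgenic arrays, so the others reached the filter only with wild-type arrays. Lcn5, another epididymal lipocalin, was instead high in wild-type mice 143 and 159 (12.99 and 12.70) and lower in 141 (8.89).

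Within the transgenic group the epididymal genes Gpx5 and Adam7 were high in mouse 152 (15.88 and 15.99) and in mouse 147 (13.81 and 11.99), and between 4.67 and 5.99 in the other 3 mice. Lpin3 was highest of the group in mouse 152, though below every wild-type mouse, while in mouse 147 it was 6.06, below its level in mouse 165. The sperm genes Prm1 and Tnp1 were highest of all mice in transgenic mouse 164 (11.11 and 8.79), which had the lowest Lpin3. The part of epididymal tissue in the Lpin3 values was not tested.

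**Figure D4:**
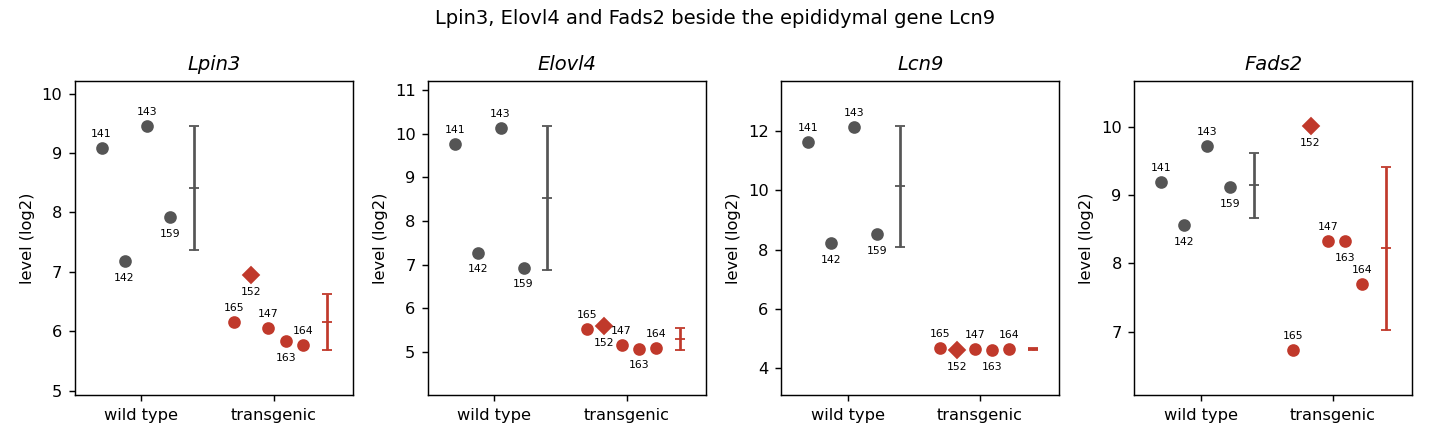
Levels (vertical axes, log2, each gene on its own scale) of Lpin3, the elongase Elovl4, the epididymal gene Lcn9 and Fads2 in each numbered mouse; bars beside the points are the group mean and SD (4 wild-type, 5 transgenic mice), and the diamond marks transgenic mouse 152. Elovl4 and Lcn9 were detected on the 4 wild-type arrays alone and passed the filter through them; every wild-type point lies above every transgenic point for Lpin3, while Fads2 overlaps.

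Lpin1, the main lipin of fat, had levels of 12.26, 11.31, 12.11, 11.96 and 11.95 in the transgenic and 12.13, 12.18, 11.93 and 12.28 in the wild-type mice. Transgenic mouse 152 was low, the other 8 mice lay between 11.93 and 12.28, and the difference was -0.21 (95% interval -0.64 to 0.21; adjusted p = 0.764), or -0.062 without mouse 152. Lpin2 was lowest in transgenic mouse 165 at 7.36 and differed by 0.025 (95% interval -0.61 to 0.66).

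Dgat1 and Dgat2 carry out the last step, the addition of the final acyl chain to diacylglycerol. Dgat1 stood at 11.24, 10.24, 10.71, 10.25 and 10.61 in the transgenic and 10.80, 10.67, 11.07 and 11.19 in the wild-type mice. Transgenic mice 152 and 163 were lowest and transgenic mouse 165 highest, and the difference was -0.32 (95% interval -0.81 to 0.17; adjusted p = 0.675). Dgat2 had levels of 15.70, 14.60, 15.72, 15.20 and 15.53 in the transgenic and 15.45, 15.19, 14.80 and 12.47 in the wild-type mice. The 8 mice other than 159 lay between 14.60 and 15.72, and mouse 159 was 2.12 below the lowest of them. The difference was 0.87 (95% interval -0.35 to 2.09; adjusted p = 0.646) with that mouse and 0.20 without it.

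Pnpla3 (adiponutrin), a lipase and transacylase family member whose transcript in mouse fat rises with feeding, was also lowest in mouse 159. Its levels were 13.68, 12.60, 12.65, 12.59 and 12.93 in the transgenic and 13.23, 12.17, 12.50 and 9.97 in the wild-type mice. Mouse 159 lay 2.20 below the next mouse, 142, and transgenic mouse 165 was highest. The difference was 0.92 (95% interval -0.33 to 2.17; adjusted p = 0.638) with mouse 159 and 0.26 without it. Adig (adipogenin), a small membrane protein of adipocytes that acts in lipid droplet formation, stood at 13.52, 12.69, 13.31, 13.13 and 13.09 in the transgenic and 13.05, 13.24, 13.57 and 13.22 in the wild-type mice. Transgenic mouse 152 was lowest and mouse 159 inside the range of the others, and the difference was -0.12 (95% interval -0.53 to 0.29; adjusted p = 0.873), or -0.0067 without mouse 152.

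12 members had more than 1 kept probe. For 10 of them all kept probes had the same sign, and for Elovl1 and Acsl5 they did not. No second probe passed the threshold or had an interval of opposite direction that left out 0. Leaving out 1 mouse also moved Agpat3 to 0.22 (without 142), Agpat4 to -0.13 (without 159), Elovl7 to -0.27 and Fads1 to -0.16 (both without 165), and Lpin2 to 0.28 (without 165) or -0.081 (without 147).

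Genes of 4 related lists outside the 37 were read from the same fit. Of 35 measured, 15 were higher and 20 lower, with a median of -0.02. An unadjusted p under 0.05 in limma was found for 3 of them (8.57%, against 9.05% of all measured genes), and none passed the adjusted threshold. Among 11 controls of lipogenic transcription, 4 were higher and 7 lower, and Insig2, which holds SREBP in the endoplasmic reticulum, had the lowest p, with a difference of -0.54 (95% interval -1.04 to -0.04; unadjusted p = 0.0375, adjusted p = 0.508). Its levels were 11.92, 11.27, 11.56, 11.54 and 11.88 in the transgenic mice and 11.83, 12.51, 11.75 and 12.59 in the wild type, with wild-type mice 159 and 142 above all others. Nr1h3 (LXR alpha), an activator of Srebf1, differed by -0.27 (adjusted p = 0.638).

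Among 8 enzymes that supply acetyl-CoA and NADPH, 4 were higher and 4 lower. Citrate synthase Cs differed by 0.20 (adjusted p = 0.817) and the NADPH-forming Idh1 by 0.25 (adjusted p = 0.848). Idh1 was at 13.23, 13.34, 12.77 and 11.53 in the wild-type mice and between 12.76 and 13.25 in the transgenic, so that mouse 159 was again lowest of all, as it was for 5 of these 8 enzymes. In the other related lists mouse 159 was lowest for 2 of 11 controls of transcription and 1 of 9 elongation and desaturation enzymes. It was lowest for 2 of 7 acyltransferases and synthetases, and for 21.2% of all measured genes.

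Of 9 other elongation and desaturation enzymes, 3 were higher and 6 lower. Elovl4, which makes very long chains, was detected in all 4 wild-type mice, at 9.76, 7.27, 10.14 and 6.93, and in 0 of 5 transgenic mice, a level at least 7.48-fold lower. It passed the detection filter through the wild-type arrays alone, so no test is given for it, and it is 1 of the 3 related genes with an unadjusted p under 0.05. Hacd2, a dehydratase of the elongation cycle, had levels of 11.25, 10.59, 10.82, 11.34 and 11.46 in the transgenic and 10.91, 10.57, 10.13 and 10.20 in the wild-type mice, which overlap in mice 152, 147 and 141, with a difference of 0.64 (unadjusted p = 0.0192, adjusted p = 0.451 in limma). Of 7 other acyltransferases and acyl-CoA synthetases, 4 were higher and 3 lower. Mogat2, a monoacylglycerol acyltransferase, differed by 0.67 (95% interval -0.34 to 1.68) and Acsl6 by -0.48 (95% interval -1.15 to 0.20), neither past the threshold.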

How the data were processed

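Per the labels, total RNA of 9 mice was labelled with biotin and hybridised to Illumina arrays. The deposited intensities are linear, and no normalization by the authors is stated. Detection p-values were deposited in a companion table, per the file headers. Ordered by the series matrix intensities the detection p rose with the signal at 0 places on every array, and by the intensities of the companion table at 5386 to 6789 places on 8 arrays, so the series matrix was used. Where the tables differ, the companion intensity is 0.800 to 0.950 of the other; for mouse 147 they are the same.

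Intensities were background-corrected from the detection p, offset by 16, quantile-normalized and put on the log2 scale with neqc in limma 3.58.1 (R 4.3.3). Probes detected on at least 4 arrays were kept, 23354 of 45281. The 2 genotypes were compared by lmFit and eBayes, two-sided, with Benjamini-Hochberg adjustment over all kept probes and a threshold of 0.05. The fit and its adjustment were tested on simulated normal values on the log2 scale. The background correction, normalization, filter and choice of probe were not. Of several kept probes, the one with the highest mean represents a gene. 34885 probes carry 1 gene symbol, 18 carry several and were left unnamed, and 10378 are not named here. Where a group was below background, the fold is a bound: the bright group's mean against the higher of the dim probe's own level and the lowest detected signal of each array.

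Values in every mouse are given for Fasn, Acly, Srebf1, Mlxipl, Thrsp, Scd1, Scd2, Elovl6, Gpam, Dgat1, Dgat2, Lpin1, Pnpla3 and Adig and for the 3 members of each group with the lowest p, and in each related list the 2 lowest p are named; Acaca, also chosen, was not detected. The members, lists and tests were chosen with earlier results of these data known. Alternatives changed the background correction, offset, scaling, table, filter, weights, prior, probe and mice. By number each array is a different animal; the sources used here do not give cage or slide. The number of arrays limits the precision.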

Additional observations from a re-analysis of the deposited data

Results flagged for a closer look

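In 4 of 64 gene and group combinations (32 members in each group), the highest or lowest mouse stood apart by a gap larger than Dixon's 95% limit as a share of the group's whole range. Chance gives about 1 in 20 such groups, close to what was found. The genes were measured on the same mice, so the flags are not independent of each other. Wild-type mouse 159 was the one apart in 3 of the 4. It was lowest for Slc25a1 (10.88, next 12.11), where the gap was 0.877 of the wild-type range, and for Thrsp (9.0, next 11.48), with 0.882. It was highest for Agpat1 (8.83, next 8.06), with 0.881. Transgenic mouse 152 was lowest for Fads3 (12.17, next 12.98), where the gap was 0.837 of the transgenic range.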

How the results depend on the processing

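The 32 member differences were recomputed under 20 alternatives, 639 values in all. 635 stayed on their side of the threshold, 4 passed it (Lpin3 in 3, Mlxipl in 1) and 0 reversed. Only Mlxipl, Acacb, Acsl3 and Lpin3, whose intervals leave out 0, could count as reversed. 10 members kept 1 sign throughout, and the others changed sign under at least 1 alternative. The number of members passing was 2 without normalization between arrays, 1 with array weights, and 0 to 1 leaving out 1 mouse (1 without wild-type mouse 142). Over all probes, 1332 passed without normalization (1283 higher), 353 with array weights, 9 without a filter, 1 with detection required on all 9 arrays, 39 on the bright arrays alone, and 9 to 50 leaving out 1 mouse (50 without transgenic mouse 152, 37 without wild-type mouse 142). The bright-array setting, 5 transgenic mice against mouse 141 with the spread assumed equal, was chosen after seeing the data. The median of the lipogenesis genes was -0.16 with array weights and ranged from -0.24 to 0.26 leaving out 1 mouse. That of desaturation and elongation genes was -0.31 with scaling on the 75th percentile, 0.12 without normalization, -0.11 with detection on all arrays, -0.070 on the bright arrays, and -0.28 to -0.016 leaving out 1 mouse. That of esterification genes was 0.19 without normalization and -0.21 to -0.0067 leaving out 1 mouse. Without normalization the median of all genes was 0.42, and relative to it the last 2 medians were -0.31 and -0.24. The cause of these moves was not tested. No paired analysis was possible because the groups share no mouse number. With 4 wild-type mice, 3 of them on dim arrays, small differences are not resolved.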
